A study of Mus musculus with 36 samples.

Results

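The retina taken 3 days (3D) after an anterior chamber injection of microbeads, a mouse model of glaucoma, was compared with the retina of uninjected (naïve) mice. The members are 4 libraries of the 36 in the series, chosen by their labels alone: 2 glaucoma libraries at 3D and 2 naïve libraries. All mice were C57BL/6 and 2 to 4 months old. The beads were injected into 1 eye, where they obstruct the outflow of aqueous humour and raise the intraocular pressure. In the study's readings of the 3D mice, the mean pressure difference between the eyes was large at day 1. It was small at day 3, with a wide spread between mice. Naïve mice had no procedure in either eye. Each library held the RNA of 2 mice of 1 sex mixed in equal amounts, so each group had a female pool and a male pool (n = 2), and a difference between the pools of a group cannot be told apart from the sex of the mice. The other retina libraries served for comparison: glaucoma at 2 weeks (2W) and 6 weeks (6W), and optic nerve crush at 3D and 2W, with 2 libraries in each group. The same 2 naïve libraries were the control in every comparison with naïve retina.

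In glaucoma, the axons of retinal ganglion cells (RGCs) are injured where they leave the eye, and the cell bodies in the inner retina die later. Müller glia, which span the retina, and astrocytes, which lie along the nerve fibre layer, respond to injury by raising intermediate filaments such as GFAP and by signalling through gp130 cytokine receptors and the transcription factor STAT3. Microglia, the resident macrophages of the retina, respond with Fc receptors, complement and lysosomal proteins. In whole-retina RNA, fewer cells of a type and less RNA per cell cannot be told apart.

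The female 3D glaucoma pool was the shallowest of the 12 retina libraries, with 19931516 counts, against 46940497 in the male 3D glaucoma pool and 43795226 and 37153668 in the female and male naïve pools. Levels are given as CPM (counts per 1000000 counts of the library, after TMM scaling of the library sizes), in the order female pool and male pool. Rod photoreceptor markers summed to 118000 CPM in each naïve pool and to 108000 and 111000 CPM in the glaucoma pools. The genes that mark sex matched the labels in 12 of 12 retina libraries.

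Both tests of the same design, group with sex as a covariate over the 8 naïve and glaucoma libraries, gave very different numbers of calls. A call required an adjusted p below 0.05 and a log2 fold change beyond 1 in size. The edgeR quasi-likelihood test called 0 of 23301 genes higher at 3D (0%) and 1 gene lower (0.00429%), whereas 678 genes (2.91%) were higher and 740 (3.18%) lower at an unadjusted p below 0.05. DESeq2, the tool of the study's own methods, called 125 of 23527 genes higher (0.531%) and 36 lower (0.153%). Below, "rose" and "fell" mean called by DESeq2, and no gene so described passed the adjusted threshold of edgeR. In counts simulated with the spread of the edgeR fit and no sex effect, DESeq2 called 42 genes that had not been changed, against 10 for edgeR. How far these numbers carry over to the real counts was not tested. Of the 125 genes that rose, 121 had both glaucoma pools above both naïve pools and 121 had an edgeR unadjusted p below 0.05. The genes were selected on these same counts, so neither number is independent support for the calls. In 13 of the 125, both pools of a group were at 0. Among all genes tested, 18.6% had both glaucoma pools above both naïve pools and 20.2% had both below. The median log2 fold change over all genes was -0.00, and 51 of the 161 genes called shared bases with another expressed gene. When each of the 4 libraries was left out in turn, the DESeq2 calls ranged from 60 to 127 higher and from 14 to 123 lower. Without the female glaucoma pool they were 91 and 64, and without the male glaucoma pool 60 and 123. Without the female naïve pool they were 60 and 14, and without the male naïve pool 127 and 23.

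All 6 retinal stress genes listed by the study rose 3 days after bead injection, by 2.19 to 28.0 times in mean CPM. The list was chosen by the study with these samples at hand, so it is not independent evidence of its direction. The other gene lists below were chosen with earlier results of these data known, so their directions are not independent evidence either. The genes cover a ligand (Edn2), a growth factor (Fgf2), a cytokine receptor (Osmr), its transcription factor (Stat3), the feedback inhibitor of that pathway (Socs3) and a glial filament (Gfap). Each had both glaucoma pools above both naïve pools. Between 1 and 5 of the 6 were still called when 1 of the 4 libraries was left out.

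Edn2 (chromosome 4, 120161206 to 120167360, plus strand, GRCm38) encodes endothelin-2, a vasoactive peptide released by stressed photoreceptors. It was at 2.22 and 0.276 CPM in the naïve pools and at 17.8 and 10.7 CPM in the glaucoma pools. The naïve pools differed from each other more than the glaucoma pools did in ratio, yet the groups did not overlap (edgeR log2 fold change 3.88 ± 0.50 SE, unadjusted p = 6.64e-05, adjusted p = 0.202, DESeq2 adjusted p = 1.05e-14). Fgf2, basic fibroblast growth factor, which supports photoreceptor survival, was at 0.401 and 0.248 CPM in naïve retina and at 11.3 and 6.88 CPM at 3D (log2 fold change 5.01 ± 0.96 SE, DESeq2 adjusted p = 0.00514). In the deposited FPKM, the Fgf2 groups lay closer, at 0.357 and 0.603 FPKM in naïve retina and 3.73 and 1.24 FPKM at 3D. The order of the naïve pools also turned, so counts and FPKM disagree for this gene, for a reason that was not tested. The ratio of 28.0 in mean CPM belongs to Fgf2 and rests on 17 and 9 counts in the naïve pools. Fgf2 overlaps Nudt6 on the opposite strand, which stood at 6.75 and 6.45 CPM in naïve and 12.2 and 4.44 CPM in glaucoma retina, and since the strand setting of the counting was not given, reads of the pair may be shared. Ednrb, an endothelin receptor of glia and vessels, was at 9.02 and 9.85 CPM in the naïve pools and at 16.5 and 15.9 CPM in the glaucoma pools, a separation without a call by either test.

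Gfap, the intermediate filament of reactive glia, was at 22.4 and 20.7 CPM in naïve retina and at 61 and 43.7 CPM at 3D. The naïve pools agreed closely and the glaucoma pools were 2.43 times higher in mean (log2 fold change 1.26 ± 0.17 SE, edgeR unadjusted p = 8.68e-05, DESeq2 adjusted p = 4.71e-06). Osmr, the receptor for oncostatin M that pairs with gp130, went from 3.56 and 4.66 CPM to 21.8 and 13.6 CPM (DESeq2 adjusted p = 2.39e-05). Stat3 was at 43 and 50.5 CPM in the naïve pools and at 125 and 80.4 CPM in the glaucoma pools, and Socs3 was at 2.97 and 2.12 against 8.2 and 6.75 CPM (DESeq2 adjusted p = 0.00121 and 0.02). For Edn2, Fgf2, Gfap, Osmr, Stat3 and Socs3, the female glaucoma pool held the higher of the glaucoma values. Against the naïve pool of the same sex, the log2 change was larger in the female pool for Fgf2, Gfap, Osmr and Stat3. It was larger in the male pool for Edn2 (3.85 against 2.75 in the female) and Socs3 (1.47 against 1.32). Per length, Stat3 at 36.9 and 20.9 FPKM and Gfap at 20.6 and 14.2 FPKM were the most abundant of the 6 in the glaucoma pools, and Fgf2 at 3.73 and 1.24 FPKM and Socs3 at 2.83 and 2.27 FPKM the least.

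**Figure D1:**
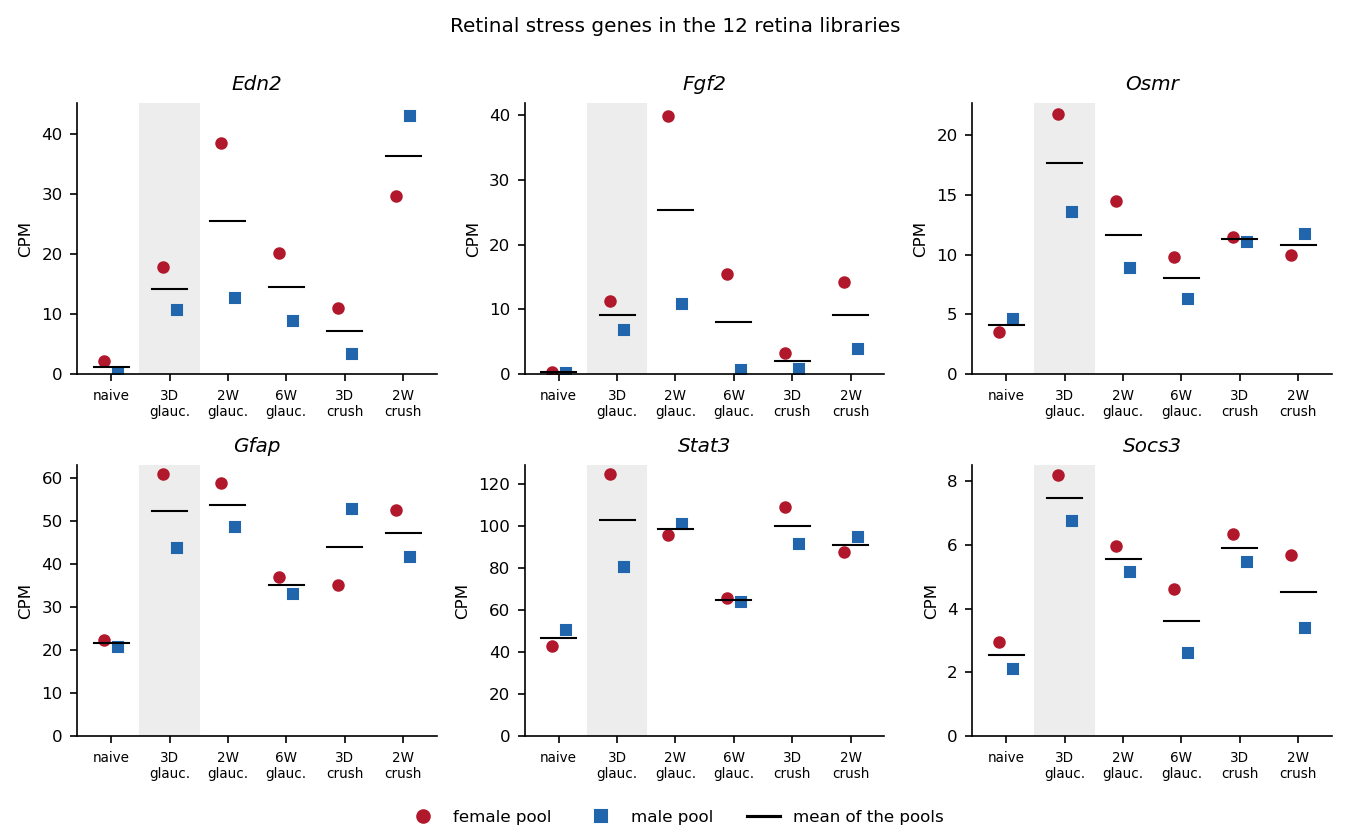
CPM of the 6 retinal stress genes in the 12 retina libraries, with female pools as circles, male pools as squares, the mean of the pools as a line and 3D glaucoma shaded. Both 3D glaucoma pools lay above both naïve pools for every gene, as for Edn2 at 17.8 and 10.7 CPM against 2.22 and 0.276 CPM.

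Of 26 measured genes of gp130 cytokines and STAT3 signalling, 6 rose and 0 fell, and their log2 fold changes had a median of 0.68. Besides Osmr, Stat3 and Socs3, these were Bcl3, Cebpd and A2m. Cebpd, a transcription factor of the acute phase response, was at 11.2 and 11.4 CPM in naïve retina and at 52.3 and 36.9 CPM at 3D, and A2m, a protease inhibitor, went from 1.94 and 2.84 to 9.04 and 7.78 CPM. Bcl3, a partner of NF-κB, stood at 0.59 and 0.717 against 3.9 and 2.35 CPM. Il6st, which encodes gp130 itself, was at 45.4 and 55.7 CPM in naïve and at 60.2 and 64.5 CPM in glaucoma retina and was not called. Cntf, a gp130 cytokine of glia, was at 4.27 and 3.92 against 9.14 and 15.4 CPM (edgeR unadjusted p = 0.0106) and was not called either. Without a library, the number of members of this list that rose ranged from 0 to 5.

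The promoter of Socs3 is shown because the gene is a direct target of STAT proteins. In the 250 bases before its start, the letters TTCNNNGAA, searched on both strands, occur once, 154 bases before the start (RefSeq, GRCm38.p6, chr11:117969367-117969616, minus strand, 5′ to 3′ along the gene, match in capitals). The same letters occur before 7.18% of the 27025 promoters in the RefSeq table and before 5 of 99 genes called higher for which a promoter was listed (5.05%).
Socs3: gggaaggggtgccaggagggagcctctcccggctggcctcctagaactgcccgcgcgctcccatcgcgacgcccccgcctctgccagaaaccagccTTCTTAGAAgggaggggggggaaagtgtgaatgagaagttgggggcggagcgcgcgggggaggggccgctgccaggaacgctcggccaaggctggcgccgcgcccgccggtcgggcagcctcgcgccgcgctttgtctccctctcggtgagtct

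Of genes that mark reactive astrocytes in brain injury, 6 of 12 measured members of the pan-reactive (PAN) list rose and 0 fell, with a median log2 fold change of 1.65. Serpina3n, a secreted serine protease inhibitor, was at 2.22 and 1.79 CPM in the naïve pools and at 27.9 and 36.3 CPM in the glaucoma pools (log2 fold change 4.07 ± 0.66 SE, DESeq2 adjusted p = 0.000405). Steap4, a metalloreductase, was at 0.0944 and 0.221 against 3.01 and 4.88 CPM, and Timp1, an inhibitor of matrix metalloproteinases, at 0.212 and 0.441 against 3.51 and 4.38 CPM. Timp1 lies within Syn1 on the opposite strand, which was far more abundant at 94 and 86.2 CPM in naïve retina and 68.1 and 73.2 CPM at 3D. Cp, ceruloplasmin, rose from 138 and 123 CPM to 240 and 282 CPM. Lcn2, lipocalin 2, was at 4.72 and 5.52 CPM in naïve retina and at 20.9 and 98.7 CPM at 3D, with a wide gap between the glaucoma pools and no call (DESeq2 adjusted p = 0.193). Vim, vimentin, was at 94.8 and 80.5 against 147 and 151 CPM, with a log2 fold change of 0.78 that lies under the threshold.

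The A1 list, associated with neurotoxic astrocytes, had 2 of 11 members called higher and a median of 1.39, and the A2 list, associated with ischaemia, had 1 of 12 called higher and a median of 0.57. Neither had a member called lower. The A1 members that rose were H2-T23, a class I histocompatibility gene that also belongs to antigen presentation, and Gbp2, an interferon-induced GTPase, at 2.88 and 2.01 CPM in naïve and 6.92 and 8.15 CPM in glaucoma retina. Müller glia markers had a median of 0.33 over 20 genes with 1 call (Cp), and 13 of the 20 had both glaucoma pools above both naïve pools. Among them Sox9, a glial transcription factor, was at 21.8 and 22.6 against 38.3 and 34.7 CPM, Clu, clusterin, at 1010 and 968 against 1370 and 1820 CPM, and Glul, glutamine synthetase, at 1300 and 1230 against 905 and 1290 CPM. The Glul groups overlapped. Of the 20 Müller glia genes, 2 had both glaucoma pools below both naïve pools. At an edgeR unadjusted p below 0.05, 6 were higher and 0 lower. Astrocyte markers had a median of 0.06 over 11 genes, with Gfap alone called.

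**Figure D2:**
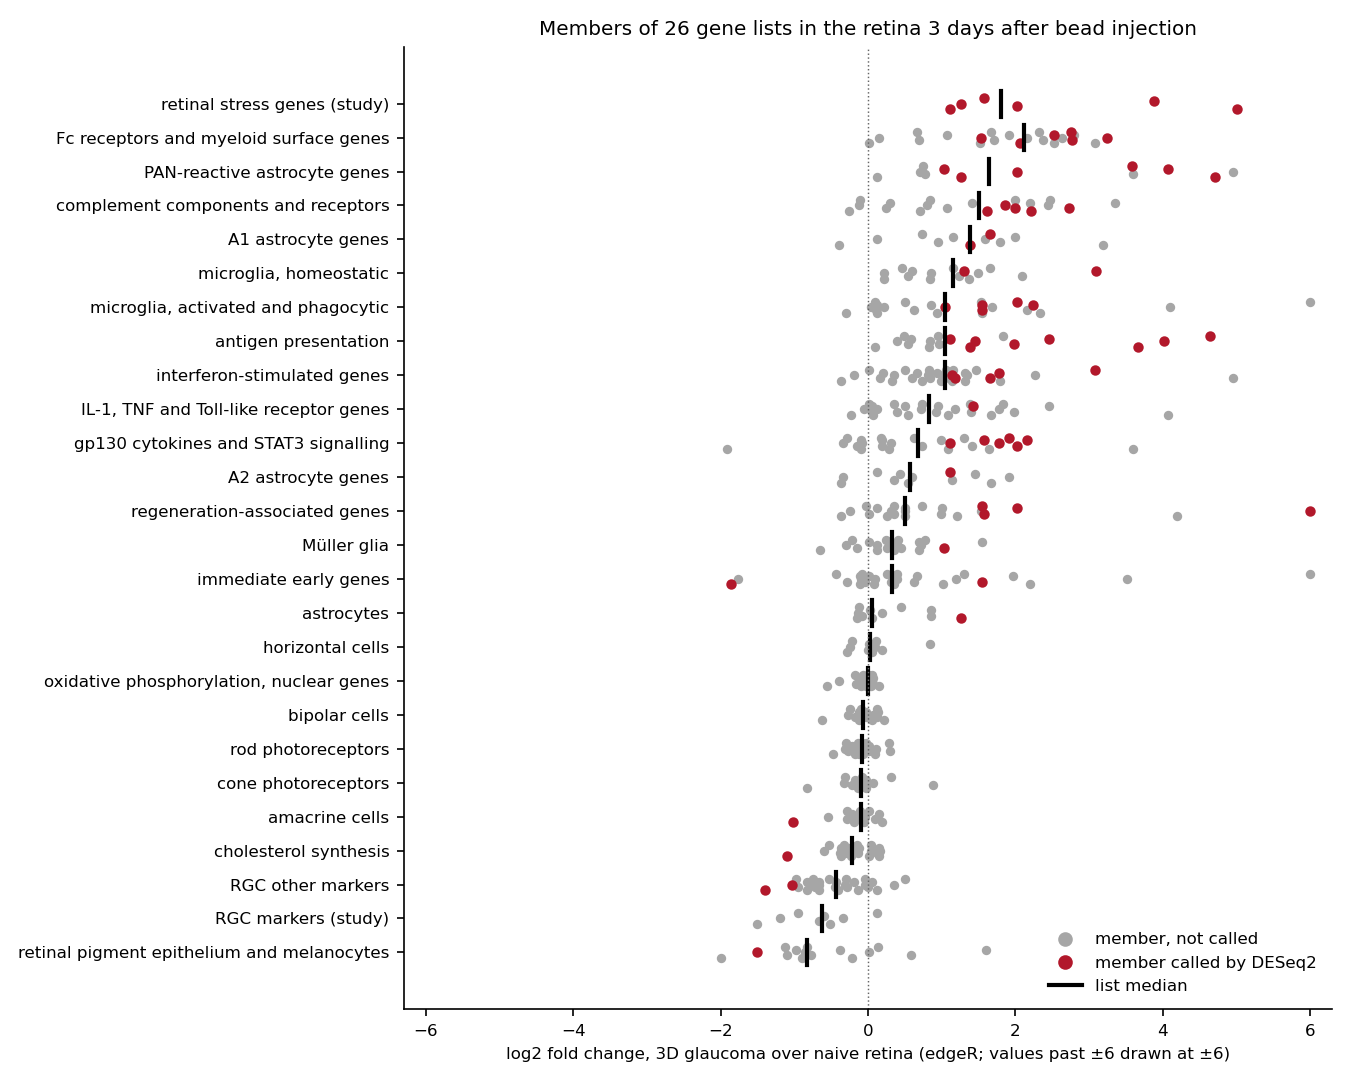
Log2 fold change of 3D glaucoma over naïve retina (horizontal axis, edgeR) for each measured member of 26 gene lists (rows), with members called by DESeq2 in red and list medians as black bars. The retinal stress list (median 1.80), the Fc receptor and myeloid list (2.11) and the PAN list (1.65) lay farthest to the right, and the RGC lists (-0.63 and -0.44) and the pigment epithelium list (-0.83) lay to the left of 0.

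Genes of microglia and other myeloid cells were higher at 3D. Of 22 Fc receptor and myeloid surface genes, 6 rose, 0 fell and 16 had both glaucoma pools above both naïve pools, with a median log2 fold change of 2.11. Homeostatic microglia genes had 2 of 15 called higher (median 1.16), and genes of activated and phagocytic microglia 5 of 23 (median 1.05), again with 0 called lower. Without a library, the calls in these lists ranged from 0 to 7, from 0 to 3 and from 0 to 5.

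Fcgr3, a low-affinity IgG receptor, was at 2.53 and 1.46 CPM in naïve retina and at 9.09 and 15.4 CPM at 3D (log2 fold change 2.77 ± 0.60 SE, DESeq2 adjusted p = 0.000383). Fcgr2b, the inhibitory IgG receptor, was at 0.779 and 0.855 against 5.09 and 5.9 CPM, and Fcer1g, the signalling chain shared by Fc receptors, at 2.62 and 3.56 against 11.7 and 14.4 CPM. An activating receptor, the inhibitory receptor and the shared adaptor thus rose, and no other Fc receptor gene of the list was called. The other calls of the list were the surface and lysosomal genes Cd52, at 0.897 and 0.607 against 3.21 and 4.66 CPM, Cd53, at 0.378 and 0.524 against 2.47 and 5.42 CPM, and Laptm5, at 6.35 and 4.58 against 12.8 and 18 CPM. Cd68, a lysosomal glycoprotein of phagocytes, went from 2.55 and 1.99 to 11.3 and 9.87 CPM (DESeq2 adjusted p = 2.82e-05), Tyrobp, the adaptor of TREM2, from 4.98 and 5.68 to 16.3 and 26.1 CPM, and Ctss, cathepsin S, from 14.7 and 14.8 to 35.1 and 49.5 CPM. Axl, a receptor for apoptotic cells, rose from 10.4 and 11.4 to 19 and 26.1 CPM. The count of the activated list also takes in Atf3, which injured neurons make as well and which is described with them. Every gene of this paragraph except Cd68 and Atf3 was higher in the male than in the female glaucoma pool.

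Among the microglia genes, Olfml3 and Fcrls rose, to 18.9 and 23.2 CPM from 9.94 and 7.28 CPM and to 4 and 8.87 CPM from 1.04 and 0.689 CPM. Cx3cr1, the fractalkine receptor, was at 5.43 and 4.36 against 8.6 and 12.5 CPM, and Csf1r, the receptor that microglia need to survive, at 12 and 8.19 against 17.3 and 30.2 CPM, both without a call. P2ry12, at 1.42 and 1.85 against 2.96 and 1.59 CPM, and Tmem119, at 2.97 and 4.44 against 5.34 and 3.49 CPM, are defining microglia genes, named after their values were seen. Their glaucoma means were the higher ones, but the groups overlapped and the sign of each difference turned with the library left out. Further myeloid genes, also named after their values were seen, rose: Mpeg1, a pore-forming protein of macrophages, from 1.96 and 1.32 to 7.31 and 7.19 CPM, Adgre1, which encodes the F4/80 antigen, from 0.378 and 0.138 to 1.78 and 4.9 CPM, and Pld4, a lysosomal nuclease, from 1.94 and 1.65 to 8.4 and 9.83 CPM.

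The listed markers of blood-derived cells had no calls, while Mpeg1, a macrophage gene outside the lists, rose. The monocyte, macrophage and neutrophil list had 0 of 15 members called by edgeR or DESeq2, with 4 higher at an edgeR unadjusted p below 0.05 and a median of 0.55. Its summed level was 47.4 and 58.1 CPM in naïve and 87.9 and 165 CPM in glaucoma retina, most of the last value coming from Lcn2, lipocalin-2, a neutrophil gene that reactive glia also make, at 4.72 and 5.52 against 20.9 and 98.7 CPM. Lyz2, lysozyme, a myeloid gene of the activated microglia list, was at 3.49 and 4.96 against 32.6 and 105 CPM and was not called. Ccr2, the receptor of inflammatory monocytes, was at 0 and 0.552 against 2.03 and 1.63 CPM, and S100a8, a neutrophil gene, at 0.0944 and 0 against 1.04 and 1.02 CPM. Lymphocyte genes summed to 2.5 and 3.53 CPM in naïve and 3.76 and 6.12 CPM in glaucoma retina, with 0 of 7 called and 0 at an edgeR unadjusted p below 0.05. How much of the myeloid rise came from resident or from blood-derived cells was not tested.

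Complement genes were higher at 3D, with 5 of 20 members called higher, 0 lower and a median log2 fold change of 1.51. The calls took in the chains of C1q, which opens the classical pathway, with C1s1, its protease, and C4b, the next component. C1qa was at 6 and 4.66 CPM in naïve and 10.9 and 21.1 CPM in glaucoma retina, C1qb at 14.1 and 13.4 against 42.8 and 54.9 CPM, and C1qc at 8.64 and 8.14 against 22.2 and 43.8 CPM. C4b was at 4.27 and 5.3 against 19 and 24.9 CPM (log2 fold change 2.21 ± 0.42 SE, DESeq2 adjusted p = 8.54e-06) and was called whichever library was left out. C1s1 was at 0.755 and 0.552 against 3.61 and 4.62 CPM. All 5 genes thus belong to the first steps of the classical pathway. C3, the central component, was at 1.11 and 2.26 CPM in naïve retina and at 1.19 and 14.7 CPM at 3D, high only in the male glaucoma pool of these 4. Serping1, the C1 inhibitor, was at 7.2 and 7.12 against 15 and 40.2 CPM, and neither was called.

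Antigen presentation had 8 of 18 genes called higher and 0 lower, the largest count of any list tested, with a median of 1.04. Class II genes, which present peptides to helper T cells, were low in naïve retina. H2-Aa was at 0.968 and 0.221 CPM in naïve and 7.91 and 11.4 CPM in glaucoma retina (log2 fold change 4.65 ± 1.04 SE, DESeq2 adjusted p = 3.67e-06), H2-Eb1 at 0.59 and 0.359 against 4.35 and 6.4 CPM, and Cd74, the invariant chain, at 2.48 and 0.855 against 14.8 and 27.2 CPM. Among class I genes, which present peptides on most cells, H2-T23 was at 9.73 and 7.67 against 25.7 and 19.8 CPM, H2-Q7 at 2.41 and 2.37 against 8.4 and 10.5 CPM, and H2-D1 at 165 and 145 against 284 and 309 CPM, the last with a log2 fold change of 0.95 just under the threshold. Class II genes therefore changed by a larger ratio from a lower level, and per length H2-D1 remained far above them at 124 and 130 FPKM against 6.17 and 8.68 FPKM for H2-Aa in the glaucoma pools. H2-Ab1, H2-K1 and B2m, named after their values were seen, made up the rest of the 8. Class I genes are close copies of each other, and the counting may have moved reads between them. With a library left out, 2 to 7 members of the list were called higher.

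The Y box, the letters CTGATTGG that bind the factor NF-Y, is part of the known promoter of class II and several class I genes. It was searched on both strands in the 250 bases before each start, and its match is in capitals, as CCAATCAG where it lies on the other strand. It occurs before 4.07% of the RefSeq promoters searched, before 6 of 13 antigen presentation genes with a promoter searched (46.2%) and before 7 of 99 genes called higher (7.07%). H2-Aa (chr17:34287824-34288073, minus strand), H2-Eb1 (chr17:34305617-34305866, plus strand) and H2-T23 (chr17:36032702-36032951, minus strand) are shown, from RefSeq GRCm38.p6, since they rose and hold the match 51, 62 and 52 bases before the start. The match is a description of the sequence and was not set against any binding data.
H2-Aa: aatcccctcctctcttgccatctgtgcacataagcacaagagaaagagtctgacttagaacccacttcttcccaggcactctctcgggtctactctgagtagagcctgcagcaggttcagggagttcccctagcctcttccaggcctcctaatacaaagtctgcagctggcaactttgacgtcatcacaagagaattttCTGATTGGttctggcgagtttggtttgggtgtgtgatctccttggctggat
H2-Eb1: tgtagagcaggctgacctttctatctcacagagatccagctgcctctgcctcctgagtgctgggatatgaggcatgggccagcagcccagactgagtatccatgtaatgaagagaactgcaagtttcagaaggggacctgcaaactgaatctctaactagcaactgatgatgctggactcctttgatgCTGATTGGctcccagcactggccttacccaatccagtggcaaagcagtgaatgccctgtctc
H2-T23: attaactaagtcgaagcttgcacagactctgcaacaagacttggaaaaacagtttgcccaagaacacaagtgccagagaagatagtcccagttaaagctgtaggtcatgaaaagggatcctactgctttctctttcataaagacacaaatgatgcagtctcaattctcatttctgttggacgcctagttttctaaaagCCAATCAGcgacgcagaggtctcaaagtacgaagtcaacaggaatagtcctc

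Interferon-stimulated genes had 5 of 34 members called higher, 0 lower and a median of 1.04, and 26 of the 34 had both glaucoma pools above both naïve pools. Ifitm3, a membrane protein that restricts viruses, was at 17.5 and 15 CPM in naïve and 46.5 and 60.4 CPM in glaucoma retina, Oasl2 at 10.3 and 11.1 against 23.4 and 23.6 CPM, and Irf9, the DNA-binding subunit downstream of the interferon receptors, at 11.4 and 9.57 against 29.3 and 18.7 CPM. The Oasl2 values were nearly equal in the pools of each group. Ifi27l2a stood at 0.378 and 0.607 against 3.9 and 4.53 CPM. Without a library, between 0 and 2 members were called.

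Few cytokine and chemokine genes were called. Among IL-1, TNF and Toll-like receptor genes, 15 of 26 had both glaucoma pools above both naïve pools and 0 had both below. For the 21 chemokine and chemokine receptor genes these numbers were 7 and 2. The medians of these gene sets were 0.82 and 0.48 on the log2 scale. The list of IL-1, TNF and Toll-like receptor genes had 1 of 26 members called higher, Tnfrsf1a, the main TNF receptor, at 4.98 and 5.87 CPM in naïve and 16.9 and 12.9 CPM in glaucoma retina. Chemokines and their receptors had 1 of 21 called, Ccl12, a chemokine for monocytes, at 0.189 and 0.552 against 4 and 3.64 CPM. Ccl2 was at 0 and 0 against 0.642 and 0.261 CPM. Both ligands were at a few CPM or less, where a small number of reads sets the value.

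RGC genes were lower at 3D, and more clearly in the female than in the male pool. None of the 8 RGC markers used by the study was called by edgeR or DESeq2. Of the 8, 4 were lower at an edgeR unadjusted p below 0.05 and 0 higher, with a median log2 fold change of -0.63. The study reported these markers in these same samples, so the list is not independent evidence of its direction. Of 28 other RGC genes, 2 fell (Nefh and Chrna6), 0 rose and 15 had both glaucoma pools below both naïve pools, with a median of -0.44. With a library left out, between 0 and 4 of the study's markers and between 0 and 5 of the others fell.

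Nefh, the heavy neurofilament chain of large axons, was at 74.5 and 78.2 CPM in naïve and 18.2 and 42.4 CPM in glaucoma retina (log2 fold change -1.40 ± 0.30 SE, edgeR unadjusted p = 0.00194, DESeq2 adjusted p = 0.00136). Nefl, the light chain, was at 808 and 766 against 387 and 623 CPM, and Nefm, the medium chain, at 152 and 149 against 81.9 and 110 CPM. All 3 chains were lower in both glaucoma pools, and only Nefh passed the size threshold. Chrna6, a nicotinic receptor subunit, was at 131 and 126 against 41.2 and 89.4 CPM (DESeq2 adjusted p = 0.0302), and its partner Chrnb3 at 64.3 and 53.8 against 26 and 44.4 CPM.

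Rbpms, a pan-RGC RNA-binding protein, was at 44.9 and 38 CPM in naïve and 15.3 and 27.4 CPM in glaucoma retina, and Rbpms2 at 46 and 37.3 against 9.83 and 30.4 CPM. Pou4f2, a transcription factor of RGCs, was at 5.74 in each naïve pool and at 1.24 and 2.83 CPM. These 3 and Tubb3, at 176 and 158 against 97.3 and 140 CPM, were the members with an unadjusted p below 0.05. Sncg, at 255 and 204 against 87.2 and 207 CPM, and Pou4f1, at 13.5 and 10.6 against 4.35 and 11.9 CPM, were low in the female glaucoma pool alone. Thy1, at 15.6 and 37.5 against 23.8 and 29.8 CPM, showed no separation, and the sign of its difference turned with the library left out. The mean log2 level of the 8 markers was 1.16 below naïve in the female glaucoma pool and 0.28 below in the male, against 0.81 and 0.99 below in the 3D crush pools.

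Several genes that injured neurons switch on after axon damage were far higher in the female than in the male glaucoma pool. The list of regeneration-associated genes had 4 of 22 members called higher (Sprr1a, Sox11, Atf3 and Socs3), 0 lower and a median of 0.51. Atf3, a stress transcription factor, was at 15 and 18 CPM in naïve and 74.3 and 28.1 CPM in glaucoma retina (DESeq2 adjusted p = 0.00478). Sox11, a transcription factor of young neurons, was at 2.38 and 3.59 against 23.2 and 5.47 CPM (DESeq2 adjusted p = 0.0337), and Sprr1a, which promotes axon growth, at 0 and 0 against 18.8 and 1.96 CPM (DESeq2 adjusted p = 0.023). In each case the male glaucoma pool lay above the naïve pools but the female pool was several times higher still. Ecel1, an endopeptidase of injured neurons, was at 0.59 and 0.827 against 64.3 and 2.05 CPM, and Mmp12, a metalloelastase, at 1.04 and 0.414 against 35.7 and 1.61 CPM, and neither was called. Cdkn1a, which encodes the cell cycle inhibitor p21, rose from 8.4 and 9.49 to 33.9 and 15.1 CPM. Gap43, a growth cone protein, was at 59 and 53.8 against 82.4 and 63.2 CPM and was not called.

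In the 3D crush retina, where the nerve itself was crushed, both pools stood nearer on a log2 scale to the female than to the male glaucoma pool in 5 of these genes. Ecel1 was at 45.4 and 88.3 CPM there, Sprr1a at 18.8 and 26.7 CPM, Sox11 at 17.7 and 31.1 CPM, Mmp12 at 29.4 and 44.1 CPM and Atf3 at 47.9 and 98.2 CPM. The mean log2 level of the regeneration list was 1.20 above naïve in the female and 0.49 in the male glaucoma pool, and 0.94 and 1.37 in the crush pools. Its median over the 22 genes differed little between the glaucoma pools, at 0.62 in the female and 0.51 in the male against the naïve pool of the same sex, so a few genes carried the gap between the means. The Fc receptor and complement lists had the opposite order, with means of 0.92 in the female and 1.46 in the male glaucoma pool for the Fc receptor list and of 0.63 and 1.32 for complement. The activated microglia list was at 0.91 and 0.94, with medians of 0.83 in the female and 0.63 in the male pool. With 1 pool of 2 mice of each sex, this difference has no test, and sex, the extent of injury in these mice and the depth of the library cannot be told apart.

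**Figure D3:**
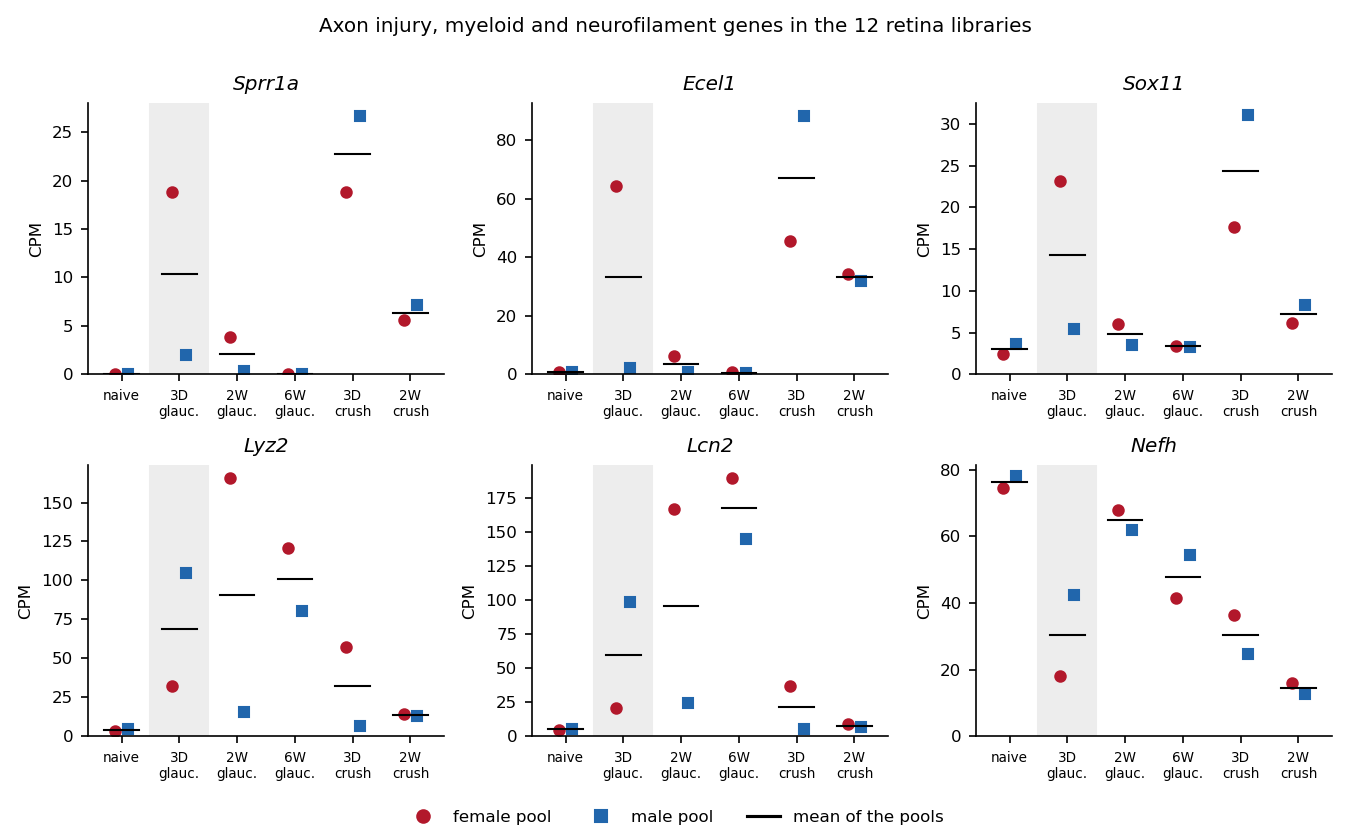
CPM of 6 genes in the 12 retina libraries, with female pools as circles, male pools as squares, the mean of the pools as a line and 3D glaucoma shaded. Sprr1a, Ecel1 and Sox11 were high in the female 3D glaucoma pool and in both 3D crush pools, Lyz2 and Lcn2 were higher in the male than in the female 3D glaucoma pool, and Nefh was lowest of the naïve and glaucoma libraries in the female 3D pool.

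The promoter of Sprr1a is shown because the gene was at 0 in both naïve pools and is a known target of AP-1, the factor that Atf3 and Jun family proteins form. The AP-1 letters TGANTCA, searched on both strands and in capitals, occur 146 and 116 bases before its start (RefSeq, GRCm38.p6, chr3:92485882-92486131, minus strand). They occur before 6.87% of the promoters searched and before 9 of 99 genes called higher (9.09%).
Sprr1a: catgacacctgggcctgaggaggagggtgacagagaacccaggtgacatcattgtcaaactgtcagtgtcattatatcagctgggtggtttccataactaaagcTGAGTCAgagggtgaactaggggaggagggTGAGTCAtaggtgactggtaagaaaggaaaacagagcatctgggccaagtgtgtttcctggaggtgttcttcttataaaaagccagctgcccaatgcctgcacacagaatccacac

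Other stress programmes had few calls. Immediate early genes had 1 of 28 members called higher (Atf3) and 1 lower (Jund), with a median of 0.32. Jund, an AP-1 subunit, was at 51 and 57.5 CPM in naïve and 6.92 and 25 CPM in glaucoma retina (log2 fold change -1.86 ± 0.45 SE, DESeq2 adjusted p = 0.000895). In 24 of the 28, the ratio to the naïve pool of the same sex was larger in the female pool (85.7%), against 47.7% of all genes tested. Targets of the integrated stress response had 1 of 21 called higher, Nupr1, at 26.5 and 21 against 60.3 and 41.5 CPM, and Ddit3, which encodes CHOP, was at 85.7 and 88.4 against 119 and 127 CPM without a call. The p53 and cell death list had 1 of 24 called, Cdkn1a. Of 17 NRF2 targets and metallothioneins, 3 rose and 0 fell: Cp, also a Müller glia and PAN gene, Mt1 from 178 and 157 to 413 and 355 CPM and Mt2 from 19.4 and 21.8 to 59.6 and 60.4 CPM. Mt1 and Mt2 encode metal-binding proteins that glia make under stress. Hmox1, haem oxygenase 1, was at 8.12 and 5.6 against 14 and 17.6 CPM, and Gclm, a glutathione synthesis gene, at 36.6 and 42.1 against 21.1 and 26 CPM. The metallothioneins and Gclm, all of this list, thus lay on opposite sides of naïve.

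Markers of the other retinal neurons were close to naïve. Median log2 fold changes were -0.08 over 24 rod genes, -0.09 over 14 cone genes, -0.06 over 16 bipolar genes, -0.09 over 16 amacrine genes and 0.03 over 10 horizontal cell genes. Of these 80 genes, DESeq2 called 1, the amacrine gene C1ql1, at 33.4 and 29.9 CPM in naïve and 15.6 and 15.4 CPM in glaucoma retina, and edgeR called 0, with 6 at an unadjusted p below 0.05. Sag, rod arrestin, was at 9990 and 9490 against 13100 and 10900 CPM, and Nrl, the rod transcription factor, at 874 and 926 against 531 and 796 CPM. Of the 24 rod genes, 2 had both glaucoma pools above both naïve pools and 13 had both below. For the 14 cone genes these numbers were 2 and 7. Among all genes tested the shares were 18.6% above and 20.2% below. Cnga3, a cone channel subunit, was at 10.3 and 11.7 against 6.42 and 5.88 CPM. Nuclear genes of oxidative phosphorylation had a median of -0.00 over 26 genes and 0 calls by either tool, with 0 at an unadjusted p below 0.05. Glycolysis genes had a median of -0.11 and 0 calls by either tool, with 1 of 24 at an unadjusted p below 0.05 (Tpi1, triosephosphate isomerase, at 1040 and 1030 against 730 and 618 CPM).

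Some tissues that border the retina were measured through their markers. Pigment epithelium and melanocyte genes, which reach a retina sample with the tissue behind it, had a median of -0.83 over 15 genes, with 1 called lower (Rgr, an opsin of the pigment epithelium, at 72.5 and 122 against 51.8 and 25.1 CPM) and 5 lower at an unadjusted p below 0.05. Rpe65 was at 17.5 and 28.4 against 11 and 13.4 CPM, and the summed level of the list was 240 and 339 against 175 and 148 CPM. Endothelial genes had 1 of 22 called, Vwf, von Willebrand factor, at 6.35 and 4.47 against 16.9 and 16.6 CPM, while Cldn5 was at 14 and 12.5 against 17.8 and 35.2 CPM and Pecam1 at 5.81 and 6.32 against 6.18 and 10.6 CPM. Fibroblast genes of sclera and meninges had a median of 1.05, as high as that of the activated microglia list, with 1 of 11 called, Mgp, at 13.5 and 7.42 against 24 and 26.6 CPM, and a summed level of 66.8 and 54.7 against 78 and 88.5 CPM. Pericyte, red blood cell, oligodendrocyte, skeletal muscle, and ciliary body, iris and lens genes had 0 calls by edgeR or DESeq2 and 0 at an unadjusted p below 0.05 in each list. Crystallins and cell cycle genes also had 0 calls by either tool, with 4 of 11 and 2 of 28 higher at an unadjusted p below 0.05. The part that adherent tissue plays in these differences was not tested.

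Outside the lists, 71 more genes rose and 30 fell. Those named here were chosen after their values were seen. Of the 125 genes that rose, 10 were called whichever of the 4 libraries was left out, and 6 under each of 10 other settings of DESeq2: Dpm1, 2610001J05Rik, H3f3b, Hipk1, Pld4 and C4b. H3f3b, a gene of the replacement histone H3.3, was at 478 and 367 CPM in naïve and 1410 and 1510 CPM in glaucoma retina, and Hipk1, a nuclear kinase, at 32.9 and 24.7 against 82.8 and 73.9 CPM. Saa3, an acute phase protein, was at 0 and 0 against 2.37 and 4.03 CPM. Further genes that rose encode small calcium-binding and actin-binding proteins: S100a6 from 8.71 and 7.36 to 21.9 and 27.8 CPM, S100a11 from 4.01 and 3.47 to 15 and 14.9 CPM, and Tagln2 from 4.39 and 4 to 20.1 and 14.2 CPM. The S100a11 values differed by less than 1 CPM within each group.

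Dpm1, a subunit of dolichol-phosphate mannose synthase, had the lowest edgeR p of the genes that rose among those not at 0 in a group, at 15.6 and 15 CPM in naïve and 59.8 and 85.4 CPM in glaucoma retina (edgeR adjusted p = 0.0977). A gene on the same strand that overlaps it, Gm20716, moved the other way, from 139 and 151 CPM to 2.92 and 86.9 CPM. Summed over the pair, the level was 155 and 166 CPM in naïve and 62.7 and 172 CPM in glaucoma retina, so the rise of Dpm1 does not hold for the pair and the counting may have divided their reads differently in these libraries. The 1 gene that edgeR called, Purb, named after its values were seen, was at 0 and 580 CPM in naïve and 0 and 0 CPM in glaucoma retina. Purb was at 0 in each of the 6 female retina pools, so its call rests on the male pools alone, and DESeq2 did not call it (unadjusted p = 0.679).

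Among the genes that fell, Adarb1, which encodes the RNA-editing enzyme ADAR2, was called under every setting of DESeq2, at 105 and 121 CPM in naïve and 29.8 and 52.4 CPM in glaucoma retina (log2 fold change -1.49 ± 0.21 SE, edgeR adjusted p = 0.291, DESeq2 adjusted p = 1.06e-06). Several others are neuronal: the potassium channel genes Kcnb2, at 30.4 and 31.6 against 15 and 12.4 CPM, and Kcnd3, at 31.6 and 53.5 against 16.9 and 14.4 CPM, the channel partner Kcnip4, at 68.2 and 60.3 against 31.9 and 22.8 CPM, and the synaptic adhesion gene Nrxn2, at 40.6 and 33.4 against 14 and 21 CPM. In all of these the glaucoma pools lay below both naïve pools. Unlike the RGC markers, Kcnb2, Kcnd3 and Kcnip4 were lower in the male than in the female glaucoma pool.

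The distance of the lists from naïve was set beside that at the later times, without a test of the order. The Fc receptor list had a median log2 fold change against naïve of 2.11 at 3D, 1.20 at 2W and 1.54 at 6W, homeostatic microglia genes 1.16, 0.51 and 0.46, complement 1.51, 1.02 and 1.11, and the study's RGC markers -0.63, -0.18 and -0.29. Retinal stress genes stood at 1.80, 1.37 and 0.80. These medians were farthest from 0 at 3D, but the mean log2 levels of the pools gave another order for some lists. Complement was at 0.63 and 1.32 above naïve at 3D and at 1.24 and 1.09 at 6W, and retinal stress genes at 2.37 and 1.80 at 3D and at 2.61 and 1.86 at 2W. All these values share the naïve pools, and at 2W the male pool lay close to naïve for the Fc receptor list, with a mean log2 level 0.23 above it against 1.24 in the female pool.

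Tested directly, 3D against 2W glaucoma gave 60 genes higher at 3D (0.292%) and 61 lower (0.297%) by DESeq2, and 1 gene by edgeR (0.00429%). Of the members of the lists, Mt1 (216 and 98.6 CPM at 2W), the heme oxygenase gene Hmox1 (8.17 and 4.67), Atf3 (20.4 and 17), Cdkn1a (8.6 and 5.95), the myelin gene Mobp (6.57 and 2.69, against 14.9 and 11 at 3D) and the melanocyte gene Mlana (0 and 0, against 1.53 and 0.697 at 3D) were higher at 3D, while Mt2 was not called. Nefh (67.9 and 61.9 CPM at 2W), Jund (43.8 and 40.5), the cell death inhibitor gene Bcl2 (37.7 and 40.9, against 17.8 and 18.9 at 3D) and, outside the lists, Adarb1 (105 and 140) were lower at 3D than at 2W. Nefh, Jund and Adarb1 were thus closer to their naïve level in the 2W pools, which came from other mice. Against 6W, DESeq2 called 46 genes higher at 3D (0.285%) and 46 lower (0.285%), and edgeR 3 genes (0.0129%). H2-Q7 (2.13 and 2.57 CPM at 6W), Sprr1a (0 and 0), Ecel1 (0.758 and 0.336), Mt1 (160 and 193) and the urea transporter gene Slc14a1 (11.5 and 8.98) were higher at 3D. Adarb1 (113 and 107), Bcl2 (37.6 and 40.7) and the crystallin gene Cryba1 (11.4 and 0.261, the first from 1 pool) were lower. No member of the Fc receptor, complement, interferon or RGC lists of the study was called against 2W or 6W by DESeq2 or edgeR.

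Glaucoma and crush retina at 3D differed in few genes, with 20 higher in glaucoma (0.093%) and 13 lower (0.0604%) by DESeq2 and 2 by edgeR (0.0081%). Fgf2 was higher in glaucoma, with crush pools at 3.32 and 0.864 CPM (log2 difference 2.50, DESeq2 adjusted p = 0.0324), and so were Hipk1, at 31.6 and 28.8 CPM after crush, and Dpm1, at 19.2 and 13.9 CPM. Jund, at 49.6 and 71.3 CPM after crush, and Adarb1, at 94.2 and 106 CPM, were lower in glaucoma. These genes, apart from Fgf2, were at naïve-like levels after crush. Edn2 was at 11 and 3.4 CPM, Gfap at 35.1 and 52.8 CPM, Osmr at 11.5 and 11.1 CPM and Stat3 at 109 and 91.3 CPM after crush, and none of these was called between the injuries. List medians against naïve were 1.34 for retinal stress genes, 1.21 for Fc receptors and 0.62 for complement after crush, beside 1.80, 2.11 and 1.51 in glaucoma.

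**Figure D4:**
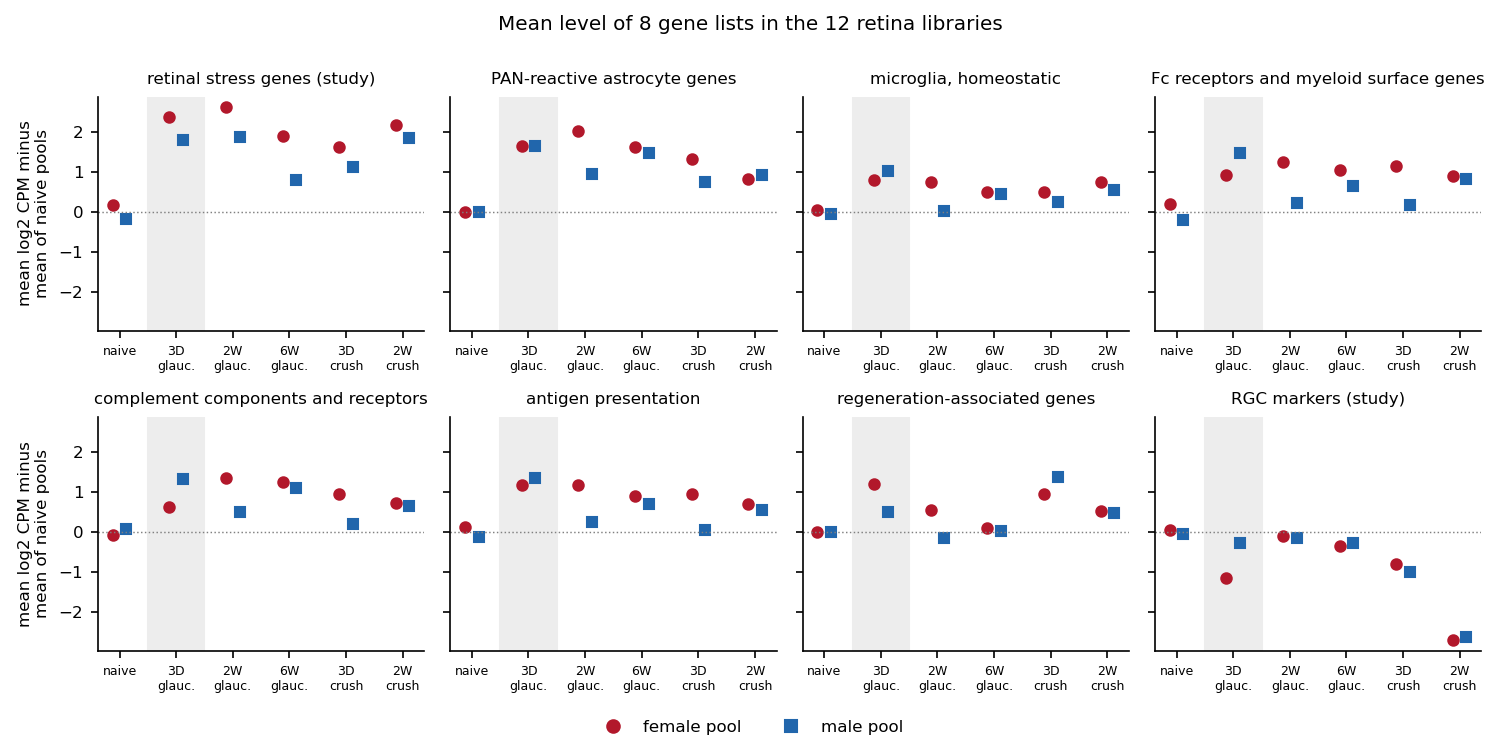
Mean log2 CPM of 8 gene lists in each of the 12 retina libraries, as the difference from the mean of the naïve pools (vertical axis), with female pools as circles, male pools as squares and 3D glaucoma shaded. At 3D the regeneration list was at 1.20 in the female and 0.49 in the male pool and the study's RGC markers at -1.16 and -0.28, while both crush pools at 3D were at 0.94 and 1.37 and at -0.81 and -0.99.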

How the data were processed

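Retina RNA of 2 mice of 1 sex was mixed in equal amounts for each library and sequenced in read pairs of 150 bases. The authors aligned reads to GRCm38 with HISAT2 2.2.1 and assembled them with StringTie 1.3.0 on Gencode M25. The authors also deposited TPM values, which were not used here. The deposited table holds estimated counts, which the prepDE script of StringTie derives from coverage. In single-exon genes 1 count stood for 74.9 bases of coverage (median), so a read pair gives about 4 counts and the totals overstate the number of fragments. FPKM per library was deposited too, of which 5 values below 0 were set to 0. The 24 columns of other tissues in the count table were not used.

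Counts were tested with edgeR 4.0.16 in R 4.3.3 (quasi-likelihood F test, TMM, filterByExpr at 10 and 15 counts, group and sex, 8 libraries, or 12 for the contrast with crush, Benjamini-Hochberg). DESeq2 1.42.0 on the same design, the model of the study's methods, and limma 3.58.1 on log2(FPKM + 1) were alternatives. The scripts were tested on simulated data for the 8 libraries, with 50 genes changed at each size of change. The counts were drawn with the spread of the edgeR fit and no sex effect, and the changed genes averaged 1 CPM or more. There DESeq2 also called 42 unchanged genes and edgeR 10. At a log2 fold change of 1.5, DESeq2 called 34 of the 50 changed genes and edgeR 21. At 2, 3 and 4, DESeq2 called 42, 47 and 47 of 50, and edgeR 36, 45 and 44. Sex pairs the pools and is in the main design. Genes named are the members of the study's RGC and stress lists, Timp1, Fcgr3, Cd68 and up to 6 members of each other list by smallest p, with the largest edgeR calls, of which none qualified. Il6st, Cntf, Glul, P2ry12, Tmem119, C3, Gap43, Pecam1, the overlapping genes and the genes outside the lists were named after their values were seen. The gene lists and their members were chosen with earlier results of these data known, whereas the libraries were chosen by label. Intervals given as ± are standard errors of the edgeR fit. P-values measure the spread between pools. Strand and aligner settings were not given in the sources used here. RefSeq promoters are from GRCm38.p6, 1 for each gene symbol, without those of chromosome 18.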

Additional observations from a re-analysis of the deposited data

Results flagged for a closer look

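Direct edgeR contrasts between 3D glaucoma and the other retina groups gave 6 differences past the adjusted threshold, in 4 genes, and a gap between groups under the same contrast is what drew attention to each. Purb was lower at 3D than at 2W glaucoma (log2 difference -15.34, edgeR adjusted p = 0.0481), than at 6W glaucoma (-15.35, adjusted p = 0.024) and than 3D crush (-16.49, adjusted p = 0.00805). It was at 0 CPM in the 6 female retina pools, and among the male pools at 0 CPM in 3D glaucoma against 212 at 2W, 213 at 6W and 450 in 3D crush, so 1 library carries the low side of all 3 differences. Dpm1 was higher than in 3D crush (2.14, adjusted p = 0.0317), with the overlapping Gm20716 lower in the 3D glaucoma pools as described above.

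Ak4, a mitochondrial adenylate kinase, was higher at 3D than at 6W glaucoma (log2 difference 3.77, edgeR adjusted p = 0.024), with 28.7 and 32.1 CPM at 3D, 2.78 and 1.68 CPM at 6W and 25.8 and 25.1 CPM in naïve retina. Grk1, a receptor kinase of photoreceptors, was higher at 3D than at 6W (2.11, adjusted p = 0.0349), with 863 and 825 CPM at 3D, 163 and 235 CPM at 6W and 826 and 964 CPM in naïve retina. In both genes the 3D pools were close to the naïve pools, and the 6W pools stood apart.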

How the results depend on the processing

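With n = 2 pools a group, the number of calls depended on the test more than on the scaling. For 3D glaucoma against naïve, edgeR called 0 genes higher and 1 lower. With the 12 retina libraries it called 1 higher, with the 4 compared libraries 0 lower, with no filter 11 higher and 4 lower, and without the sex term that pairs the pools 2 higher and 0 lower. Robust moderation, added after seeing the data, gave 5 higher. Leaving out 1 library gave 0 to 6 higher and 3 to 10 lower. DESeq2 called 125 and 36, and limma on log2(FPKM + 0.1) 1 and 0, and on log2(FPKM + 1) 0 lower.

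Against 2W glaucoma edgeR called 1 gene, 4 with 12 libraries, 5 with 4 libraries, 13 with no filter, 0 without the sex term and 5 to 9 with a library left out. Against 6W it called 3, then 0 with 4 libraries, 10 with no filter, 1 without the sex term and 8 to 19 with a library left out. Against 3D crush it called 2, then 1 with 6 libraries, 0 with 4, 5 with no filter, 1 without the sex term and 5 to 18 with a library left out. DESeq2 called 121, 92 and 33 genes, and limma 0 in each with either pseudocount. DESeq2 calls against naïve with a library left out ranged from 60 to 127 higher and 14 to 123 lower, and it called 135 higher without the male 2W pool. Its other settings, chosen after seeing the data, stayed within 1.5 times. The cause of these differences was not tested.

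Of 134 genes, 8 changed sign in at least 1 alternative. Without the female naïve pool, Thy1 was at -0.20 (edgeR) and -0.19 (DESeq2), Pou4f3 at 0.00 and 0.01 and Tmem119 at -0.22 and -0.21. Without the female glaucoma pool, Thy1 was at -0.17, Pou4f1 at 0.14, Tmem119 at -0.09 and Glul at 0.01 with either tool, and P2ry12 at -0.17 and -0.18. Without the male glaucoma pool, Pecam1 was at -0.06 and -0.05, and Purb at 0.41 in DESeq2. Over all libraries left out, the far ends of the edgeR range were 0.47 for Thy1, -1.61 for Pou4f1, -0.70 for Pou4f3, 1.02 for P2ry12, 0.71 for Tmem119, -0.47 for Glul and 0.89 for Pecam1. The shallow female glaucoma pool limits what can be said of genes under a few CPM.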
